A study of Mus musculus with 192 samples.

Results

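Ribosome biogenesis genes encode the proteins that make and assemble ribosomal subunits, apart from the ribosomal proteins themselves, and 49 of them were followed here across single blood stem and progenitor cells of the mouse. The 49 genes were a named list, kept where a gene had 10 or more UMIs (unique molecular identifiers, each counted as 1 captured RNA molecule) over all cells; all 49 passed, out of 20764 genes in the counts. The cells were 192 LSK cells, a marrow fraction low in lineage markers that carries Sca-1 and the stem cell factor receptor cKit and holds blood stem cells and multipotent progenitors. Every cell came from C57BL/6 marrow that was enriched with magnetic beads against CD117 (cKit), stained and sorted singly into 384-well plates, and no treatment, transgene or deletion was labelled for any cell. The labels give mice of 8 to 16 weeks and a strain of C57BL/6 for all cells, although the same protocol text also lists Pep3b, Cas9-Tg and Dach1-GFP mice. No animal was named for any cell, so all cells counted as 1 biological sample, no test across animals could be made, and every interval below is a 95% interval of counting error alone.

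Each cell carried the sorter's own signals, and the cells of each of 2 library pools were ranked by forward scatter (which follows cell size), cKit, Sca-1, CD135 (the Flt3 receptor) and CD150 (Slamf1). The 32 highest, 32 middle and 32 lowest cells of each pool formed the upper, middle and lower class of each signal. A cell with 708 UMIs was left out, and the other 191 held 3704842 gene UMIs, with a median of 17715 and a range of 3927 to 49372 per cell. Both pools used the same 96 cell indexes and were told apart by the library index. The fraction was checked by its markers: Kit RNA was seen in 188 of 191 cells, that of Cd34, Meis1, Hlf and Flt3 in most, and that of Ly6a, which encodes Sca-1, in 72. S100a8 of neutrophils had 0 UMIs, the Cd3 genes were not analysed here, and 88.1% of the Cd79a UMIs of B cells lay in 1 cell.

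Making a ribosome starts in the nucleolus, where RNA polymerase I transcribes the long ribosomal RNA precursor. Small nucleolar ribonucleoproteins then guide its chemical modification, those of the box C/D type by methylation and those of the box H/ACA type by pseudouridylation, while separate sets of factors fold, cut and export the precursors of the small and the large subunit. The pathway is known to be costly for a cell, to scale with growth and division, and to be held low in resting blood stem cells.

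Of the 49 genes, 43 had a promoter entry in RefSeq's mouse table (GRCm38.p6), each reaching from 250 bases before to 50 bases after a transcription start; Npm1, Fbl, Bop1, Rrp12, Rrs1 and Gnl2 had none. Of the 7 promoters shown, those of Ncl, Nop56, Nolc1, Ddx10, Nop10 and Brix1 belong to genes that the comparisons below turn on, and that of Wdr43 shows an E-box. Capitals mark the E-box CACGTG or the ETS motif CCGGAAG, which reads as CTTCCGG on the other strand, and each sequence runs 5′ to 3′ on the strand of its gene.
Ncl (chr1:86359406-86359705, minus strand): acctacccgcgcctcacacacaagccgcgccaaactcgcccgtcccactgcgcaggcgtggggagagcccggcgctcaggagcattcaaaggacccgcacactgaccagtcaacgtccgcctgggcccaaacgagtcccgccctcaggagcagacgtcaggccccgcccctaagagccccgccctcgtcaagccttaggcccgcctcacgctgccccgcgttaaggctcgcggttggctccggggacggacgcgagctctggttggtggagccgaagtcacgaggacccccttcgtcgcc
Nolc1 (chr19:46075597-46075896, plus strand): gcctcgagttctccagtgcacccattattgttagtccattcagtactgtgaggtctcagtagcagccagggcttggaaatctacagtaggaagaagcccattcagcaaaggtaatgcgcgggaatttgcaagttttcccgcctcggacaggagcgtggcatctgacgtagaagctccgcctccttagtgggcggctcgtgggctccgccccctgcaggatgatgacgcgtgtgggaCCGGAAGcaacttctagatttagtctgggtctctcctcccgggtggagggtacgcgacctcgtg
Nop56 (chr2:130274162-130274461, plus strand): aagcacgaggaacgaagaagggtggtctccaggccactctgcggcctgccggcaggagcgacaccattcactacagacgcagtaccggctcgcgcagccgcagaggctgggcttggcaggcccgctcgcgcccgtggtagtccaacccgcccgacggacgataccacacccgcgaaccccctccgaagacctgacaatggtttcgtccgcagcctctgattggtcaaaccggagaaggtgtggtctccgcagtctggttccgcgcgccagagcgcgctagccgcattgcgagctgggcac
Nop10 (chr2:112261676-112261975, plus strand): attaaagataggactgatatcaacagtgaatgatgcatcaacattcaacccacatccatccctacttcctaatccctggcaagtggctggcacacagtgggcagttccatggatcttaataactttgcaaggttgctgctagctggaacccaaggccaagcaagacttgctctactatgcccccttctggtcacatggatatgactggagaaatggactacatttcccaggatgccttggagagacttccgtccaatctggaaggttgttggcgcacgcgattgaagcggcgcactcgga
Ddx10 (chr9:53248063-53248362, minus strand): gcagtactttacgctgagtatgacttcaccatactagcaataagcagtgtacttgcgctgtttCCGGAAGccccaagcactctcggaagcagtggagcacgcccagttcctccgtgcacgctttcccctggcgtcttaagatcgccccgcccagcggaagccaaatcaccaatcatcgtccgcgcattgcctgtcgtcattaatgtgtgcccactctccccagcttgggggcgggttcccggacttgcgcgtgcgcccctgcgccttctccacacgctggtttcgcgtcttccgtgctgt
Wdr43 (chr17:71615965-71616264, plus strand): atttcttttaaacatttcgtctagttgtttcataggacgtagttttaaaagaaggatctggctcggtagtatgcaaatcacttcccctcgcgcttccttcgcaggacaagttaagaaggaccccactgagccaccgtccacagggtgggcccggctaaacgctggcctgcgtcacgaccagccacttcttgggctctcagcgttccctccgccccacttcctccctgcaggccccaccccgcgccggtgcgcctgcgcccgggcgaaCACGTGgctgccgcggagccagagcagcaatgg
Brix1 (chr15:10485888-10486187, minus strand): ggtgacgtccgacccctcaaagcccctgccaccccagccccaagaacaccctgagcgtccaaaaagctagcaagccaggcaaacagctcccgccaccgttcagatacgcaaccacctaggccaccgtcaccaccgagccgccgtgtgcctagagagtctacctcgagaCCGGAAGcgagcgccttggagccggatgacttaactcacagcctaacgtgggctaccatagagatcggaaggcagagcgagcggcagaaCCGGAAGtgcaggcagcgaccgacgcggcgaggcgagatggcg
Searched on both strands, the E-box lay in the promoters of 8 of the 43 genes (18.6%), and in those of 8.09% of 27025 genes in the table. The ETS motif lay in 15 (34.9%), against 9.93% of all genes, and the NRF1 motif GCATGCGC in 3 (6.98%), against 3.05%. Counted over all 32851 promoters of the same length, the shares were 7.15%, 8.86% and 2.71%. At least 1 of the 3 motifs lay in 21 of the 43 genes (48.8%), against 19.02% of all genes, and none of the 3 shares letters with another in these promoters. The shares are not particular to these genes. Among 75 other ribosome biogenesis genes in the table, 20% held the E-box, 49.3% the ETS motif, 8% the NRF1 motif and 64% at least 1. Nolc1 had its ETS motif 14 bases before the start and Ddx10 farther upstream, while Brix1 had 2, at 82 bases before and 7 bases after the start. Wdr43 had its E-box 17 bases after the start, and Ncl, Nop56 and Nop10 held none of the 3 motifs in these windows. The median GC content was 59.3% in the 47 promoters of these genes and 52.7% in all, which was not taken into account in the shares. A match describes the letters only, and no binding was measured.

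Together the 49 genes held 19447 UMIs, which was 0.525% of all gene UMIs. Levels are in CPM, the UMIs of a gene per 1000000 gene UMIs; since 1 end of each RNA was counted, they need no correction for length. Npm1 (ENSMUSG00000057113; GRCm38 chromosome 11, 33152287 to 33163206, minus strand), a histone chaperone of the granular nucleolus, stood at 1196 CPM (1161 to 1232) and was seen in all 191 cells. Ncl (ENSMUSG00000026234; chromosome 1, 86344719 to 86359400, minus strand), nucleolin, stood at 1025 CPM (993 to 1058). These intervals did not overlap, and both genes together made up 42.3% of the UMIs of the 49. The other nucleolar factors were far lower: Ddx21, an RNA helicase, had 134 CPM (123 to 147), and Nolc1, a scaffold of small nucleolar ribonucleoproteins, had 96.6 CPM (86.9 to 107).

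Among the box C/D proteins, Nop58 stood at 230.0 CPM, Nop56 at 183.5 CPM and the methyltransferase Fbl at 124 CPM. Of the box H/ACA proteins, the pseudouridine synthase Dkc1 stood at 142.5 CPM and its partner Nop10 at 115.5 CPM, with Nhp2 at 61.0 CPM and Gar1 at 45.9 CPM. The polymerase I genes were low: Polr1d and Polr1c, shared with polymerase III, had 91.2 and 48.05 CPM, and the catalytic subunits Polr1a and Polr1b had 37.8 and 27.5 CPM. Wdr43 (133.1 CPM) and the helicase Ddx10 (85.3 CPM) led the 17 factors of the small subunit. Gnl3, nucleostemin (137 CPM), and Wdr12 of the PeBoW complex (109 CPM) led the 17 of the large. The lowest member was Rrp12, with 36 UMIs and 9.72 CPM. A median member had 170 UMIs, 43 had at least 100, and no member had over 20% of its UMIs in 1 cell. In 21 members an exon overlapped another gene, among them Nop56 (Idh3b, 429 UMIs, on the opposite strand), Gnl3 (Pbrm1, 1087 UMIs) and Pno1 (Wdr92, 949 UMIs), and whether the counting used strand is not given in the sources used here; the values of those genes are uncertain to that extent. Gnl3 also has the relative Gnl3l (181 UMIs) and Mrto4 the pseudogene Mrto4-ps2 (1 UMI) in the counts.

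In single cells the summed share of the 49 genes ranged from 0.125% to 0.997% of gene UMIs, with a median of 0.494% and an SD of 0.159 percentage points over 191 cells. The variance over cells was 10.2 times what counting error alone would give. The lowest cell, in pool 2, had 26 member UMIs of 20788. The 2 highest cells, also in pool 2, had 492 of 49372 (0.997%, cell 73) and 378 of 39545 (0.956%, cell 82). As a description over cells of 1 sample, the share of the nucleolar factors and that of the large subunit factors had a Spearman correlation of 0.56, and that of Npm1 with Ncl to the other 47 genes 0.55. The polymerase I genes, at few UMIs per cell, gave 0.06 to 0.16 with the other groups, which is too sparse to read. The pools differed: summed, the 49 genes held 0.4997% in pool 1 and 0.5525% in pool 2, a log2 ratio of 0.14 (0.10 to 0.19), with median cells at 0.489% and 0.522%. Nop56 stood at 139.5 CPM in pool 1 and 232 CPM in pool 2, and Nop10 at 93.03 and 140.1 CPM. Every class below was drawn within each pool, 32 cells from each before 1 cell was left out.

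A set of 10 cells stood apart and touched several results, and they were noticed only after the comparisons had been made. They held 10 or more UMIs each of 8 erythroid genes (among them haemoglobin genes, Klf1, Epor and Car1), and together 825 of the 1019 UMIs of that list (80.96%). Most of these UMIs were of Car1, carbonic anhydrase 1, which also had UMIs in 73 cells in all, although 1 of the 10 had 0 Car1 UMIs. The 10 cells were spread evenly over the pools (5 in each) and over forward scatter (3 in the lower, 3 in the middle and 4 in the upper class). They were uneven over the other signals: 9 lay in the lower class of Sca-1, 9 in the lower class of CD135, 7 in the upper class of CD150, 6 in the upper class of cKit, and 7 in the cycling class defined below. Among them were the 2 cells with the highest share of ribosome biogenesis RNA.

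The 10 cells held more RNA of nearly all members. Their summed share was 0.740%, against 0.508% in the other 181 cells, a log2 ratio of 0.54 (0.47 to 0.61). It was 0.39 in pool 1 and 0.62 in pool 2, and 0.29 (0.20 to 0.38) for the 8 cells left when cells 73 and 82 were set aside. Depth moved with it, at a median of 24782 gene UMIs against 17448, and so did cycling. Within the cycling class the 7 cells had 0.782% against 0.576% in the other 57, and outside it the 3 cells had 0.560% against 0.461% in the other 124. Of the 49 members, 42 were higher in the 10 cells and 7 lower, where 39.3% of all genes with 10 or more UMIs were higher; by 1.5-fold, 23 were higher (all genes, 16.7%) and 1, Noc3l, lower (all genes, 39.6%). Brix1, an assembly factor of the large subunit, differed most, at 157.1 against 34.3 CPM and a log2 ratio of 2.19 (1.65 to 2.71), and was seen in all 10 cells. Bysl, which acts late on the small subunit, had 52.4 against 12.8 CPM (2.03, 1.05 to 2.93, on 58 UMIs in all), and Nhp2 142 against 54.7 CPM (1.38, 0.84 to 1.89). Npm1 stood at 1744 against 1154 CPM (0.60) and Ncl at 1257 against 1007 CPM (0.32). For each signal and for cycling, the summed share over all cells and the count of members are given below with and without these cells. Why the 10 cells differ was not tested.

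Ribosome biogenesis RNA was higher in cycling cells. The cycling class held, in each pool, the 32 kept cells with the largest share of UMIs in 43 S-phase and 52 G2/M genes, none of them a member. Its 64 cells had 0.604% of UMIs in the 49 genes, against 0.464% in the other 127, a log2 ratio of 0.38 (0.34 to 0.42) and a 1.30-fold difference. Pool 1 gave 0.26 and pool 2 gave 0.50, and the cells other than the 10 gave 0.32. The median cell stood at 0.580% against 0.439%, and the cells overlapped widely (0.311% to 0.997% and 0.125% to 0.840%). The class is a range of a score and not a type of cell: its cycle genes held 0.993% of UMIs against 0.330% outside it, and 28 cells lay within 10% of the lowest score in the class of their pool. Depth moved with it, at a median of 22880 gene UMIs per cell against 15855, and its part in the result was not tested.

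Of the 49 members, 45 were higher in the cycling class and 4 lower, where 45.4% of all 12862 genes with 10 or more UMIs were higher. By 1.5-fold or more, 11 members were higher (all genes, 14.2%) and 0 lower (all genes, 18.2%), and 21 had an interval above 0 (all genes, 13.3%) and 0 one below (all genes, 14.8%). The members had a median of 170 UMIs in these cells and all genes one of 90, so the intervals of the members tend to be narrower. The median log2 ratio was 0.40 over the members and -0.06 over all genes. Without the 10 cells, 42 members were higher and 7 lower, with 46% of all genes higher.

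The box C/D and H/ACA proteins led the difference, with summed log2 ratios of 0.62 and 0.63, and all 7 of them had intervals above 0. Nop56 had a lowest, median and highest cell of 0, 226.6 and 664 CPM in the cycling class and of 0, 115 and 678 CPM outside it. Summed, that was 238 against 141 CPM, a log2 ratio of 0.76 (0.54 to 0.98), so the classes overlapped at both ends while the medians lay apart. Nop10 ran from 0 through 148 to 531 CPM in the class and from 0 through 61.7 to 424 CPM outside. Its sums were 153 and 86.3 CPM, a log2 ratio of 0.83 (0.54 to 1.11) that came to 0.66 without the 10 cells. Of the large subunit factors, Rrp1b, a nucleolar partner of phosphatase 1, stood at 71.0 against 35.96 CPM, with a log2 ratio of 0.98 (0.55 to 1.42). Nop16 differed most, with a log2 ratio of 1.02 (0.41 to 1.65) on 98 UMIs. Utp4 (0.89, 0.35 to 1.44) and Heatr1 (0.82, 0.21 to 1.45), which both act on polymerase I transcripts in the small subunit processome, were the widest of the small subunit set; Heatr1 shares an exon with Lgals8. Ncl was 1194 against 894 CPM (0.42) and Npm1 1322 against 1099 CPM (0.27). The polymerase I genes had a summed ratio of 0.15 whose interval spans 0 (-0.06 to 0.36), and only Polr1a among them had an interval above 0. The 4 members that were lower, each with an interval that spans 0, were Noc3l, Utp15, Polr1b and Wdr12.

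**Figure D1:**
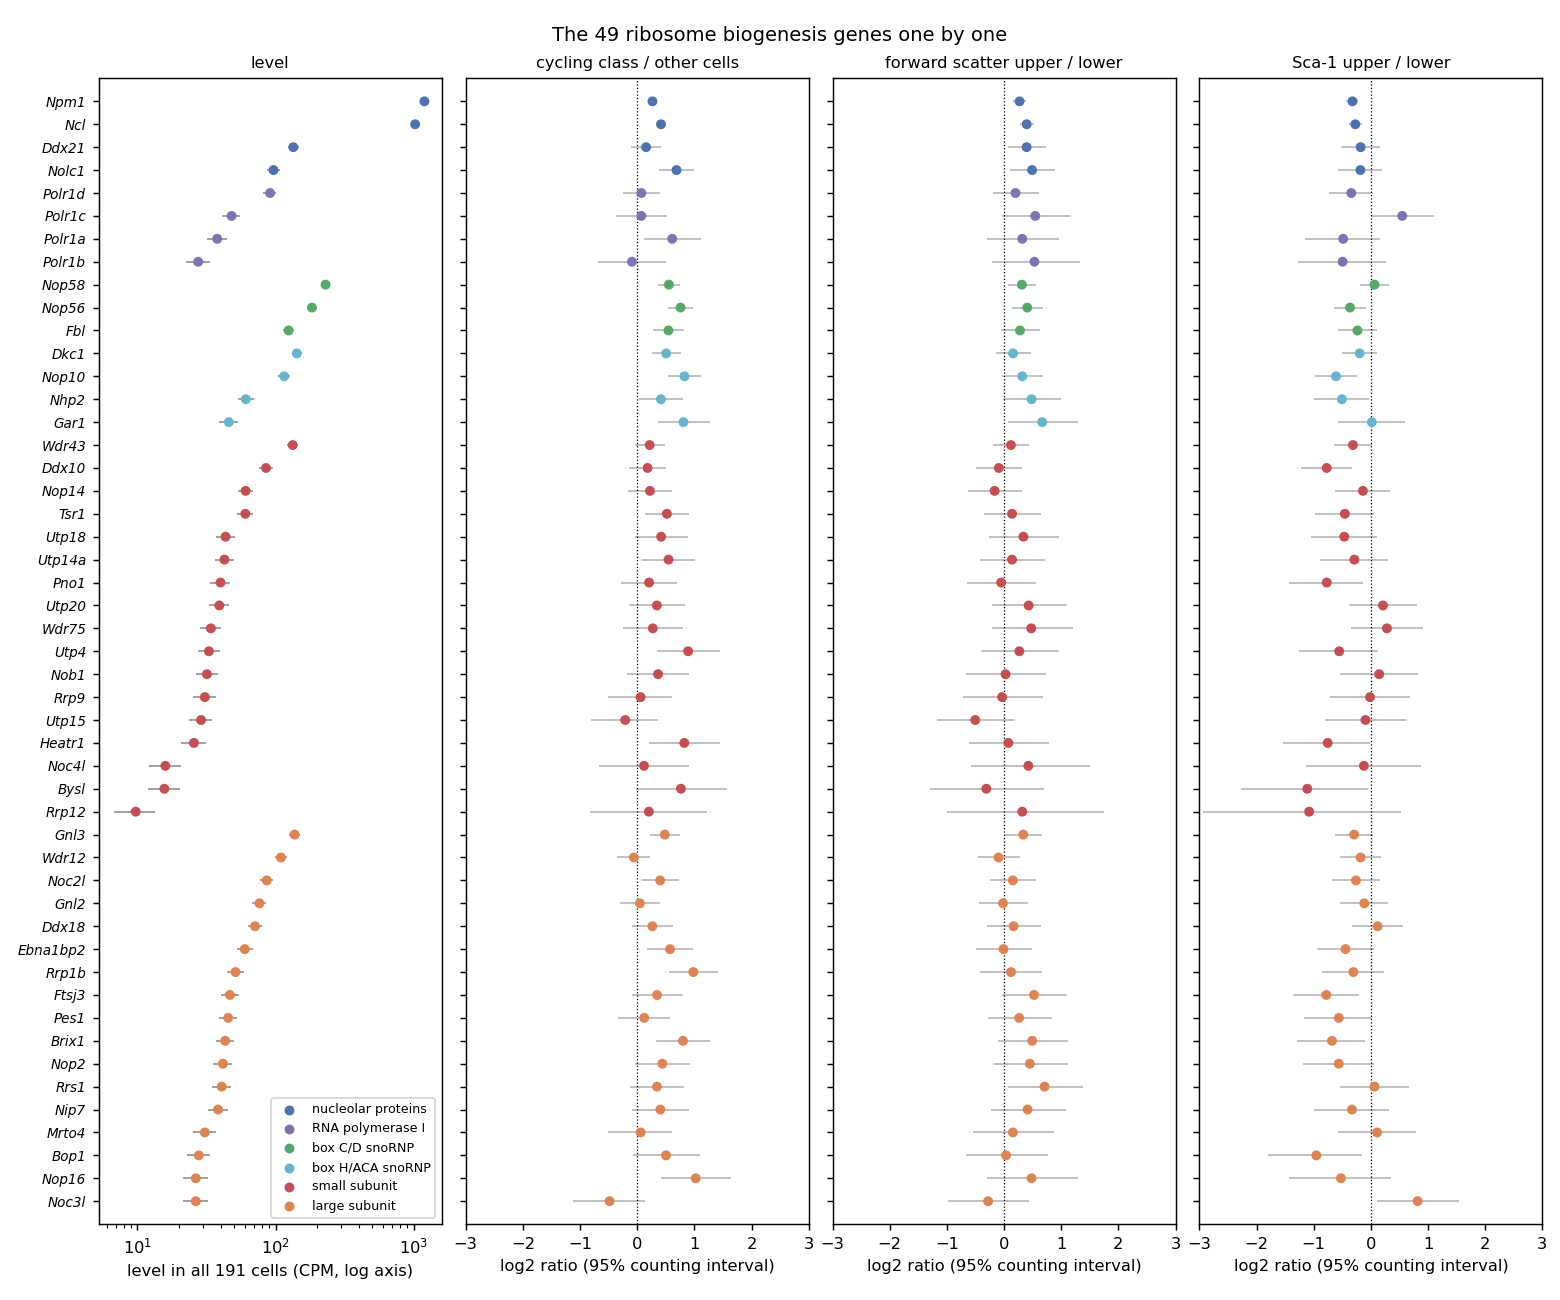
Log2 ratio of each of the 49 members with its 95% counting interval, for forward scatter and Sca-1 (upper against lower class) and for the cycling class against other cells. Of the 49 members, 39 lie above 0 for forward scatter, 10 for Sca-1 and 45 for the cycling class.

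Larger cells by forward scatter held a larger share of these RNAs. The summed share was 0.473% in the lower, 0.505% in the middle and 0.572% in the upper class, and upper against lower gave a log2 ratio of 0.27 (0.22 to 0.33), a 1.21-fold difference. Pool 1 gave 0.30 and pool 2 gave 0.26; leaving out the 10 cells with erythroid UMIs gave 0.30 (0.24 to 0.35). Single cells ran from 0.172% through a median of 0.430% to 0.956% in the lower class, and from 0.278% through 0.552% to 0.997% in the upper. Above 0.5% lay 19 of 64 cells in the lower class, 30 of 63 in the middle and 44 of 64 in the upper, so the classes overlapped over most of their range. Leaving out any 1 cell kept the ratio between 0.24, without cell 73, and 0.34, without cell 82.

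Of the 49 members, 39 were higher in the upper class and 10 lower, where 46.4% of all 12014 genes were higher. Gar1 and Rrs1 were higher by 1.5-fold (all genes, 14.1%), 0 were lower by 1.5-fold (all genes, 16.9%), and the median log2 ratio was 0.27 over the members and -0.04 over all genes. Among the 49, 9 had an interval above 0 (all genes, 9.46%) and 0 had one below (all genes, 11%). Of the 9, 7 were also among the 21 with an interval above 0 for cycling. The comparisons share many cells and this overlap was not counted over all genes, so it says nothing particular about the members. Without the 10 cells, 42 members were higher and 7 lower, with 47% of all genes higher.

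All 4 nucleolar factors had intervals above 0. Ncl cells ran from 0 through a median of 746 to 1925 CPM in the lower class and from 366 through 1111 to 1917 CPM in the upper; the sums were 864, 1008 and 1138 CPM from lower to upper, with a log2 ratio of 0.40 (0.28 to 0.52). The lowest Ncl cells were thus absent from the upper class while the highest were alike. Npm1 ran from 162 through 955 to 2365 CPM in the lower class and from 221 through 1183 to 2572 CPM in the upper, with sums of 1071, 1172 and 1293 CPM and a log2 ratio of 0.27 (0.16 to 0.38). Nolc1 had medians of 58.4 and 92.7 CPM, sums of 80.8 and 114 CPM and a log2 ratio of 0.49 (0.10 to 0.89); without the 10 cells it came to 0.39 with an interval that spans 0. Ddx21, at 111.5 and 147 CPM, had a log2 ratio of 0.40 (0.06 to 0.74).

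The box C/D proteins were also higher together, with a summed log2 ratio of 0.34 (0.18 to 0.50): Nop56 stood at 163.7 CPM in the lower and 217 CPM in the upper class (0.41, 0.13 to 0.69), with median cells at 117 and 205 CPM. All 4 box H/ACA proteins and all 4 polymerase I genes were higher, summed at 0.32 (0.13 to 0.52) and 0.34 (0.08 to 0.61), though of these 8 only Gar1 (0.67, 0.07 to 1.29) had an interval above 0. The large subunit factors had 0.20 (0.08 to 0.32), led by Rrs1, which helps to place the 5S RNA (0.71, 0.07 to 1.38). The small subunit factors were the exception, at 0.07 with an interval that spans 0 (-0.06 to 0.21), and 11 of the 17 were higher. Over all cells their interval lay below that of the nucleolar factors (0.26 to 0.41). It overlapped those of the box C/D, box H/ACA, polymerase I and large subunit groups. Without the 10 cells with erythroid UMIs the small subunit ratio was 0.13, with an interval that still spans 0 (-0.02 to 0.27). That of the nucleolar factors was then 0.34 (0.26 to 0.42), so these intervals overlapped and the groups were no longer apart beyond counting error. All of these intervals hold counting error alone and not the wider spread over cells.

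**Figure D2:**
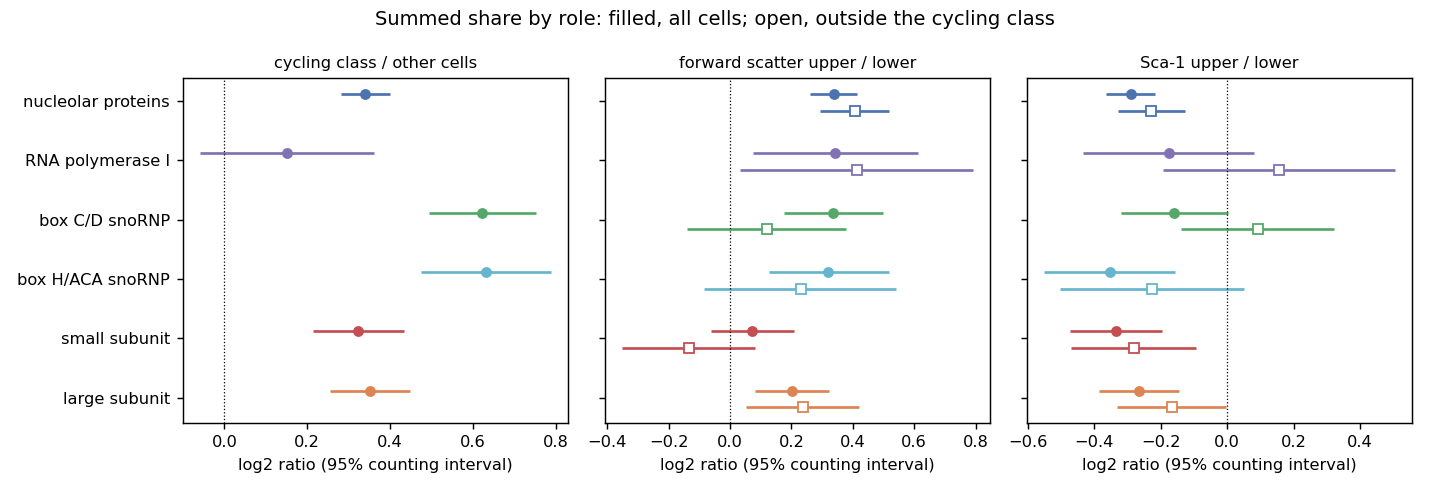
Log2 ratio of the summed share of each of 6 role groups with its 95% counting interval, for the cycling class against other cells, forward scatter and Sca-1; filled points are all cells and open squares the cells outside the cycling class. For forward scatter the small subunit group is at 0.07 while the nucleolar group is at 0.34. Without the 10 cells with erythroid UMIs these are 0.13 and 0.34, with intervals that overlap. For cycling the box C/D and H/ACA groups reach 0.62 and 0.63.

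Cycling and depth both moved with forward scatter. The cycling class held 42 of the 64 upper cells and 7 of the 64 lower cells, median gene UMIs were 22430 against 15330 per cell, and 11 of the 14 cells with a CD127 signal above 2000 lay in the upper class. Outside the cycling class the share was 0.429% in 57 lower, 0.472% in 48 middle and 0.515% in 22 upper cells, a log2 ratio of 0.26 (0.19 to 0.34) that was 0.37 in pool 1 and 0.12 in pool 2, while leaving out the 10 cells gave 0.29. In pool 2 the middle class was the highest, at 0.434%, 0.4985% and 0.472% from lower to upper. Some cycle RNA remained: the cycle genes held 0.375% of UMIs in these upper cells and 0.319% in the lower. Outside the cycling class 36 members were higher and 13 lower, with 48.3% of all genes higher. By 1.5-fold, 7 were higher (all genes, 13.9%) and 6 lower (all genes, 19.2%). Npm1 and Ncl held much of the difference in share: leaving out both, the ratio was 0.16 (0.05 to 0.26). Ncl stood at 1052 against 766 CPM (0.46, 0.28 to 0.63) and Npm1 at 1283 against 1000 CPM (0.36, 0.20 to 0.52), while Polr1c (1.00, 0.14 to 1.86), Rrs1 (1.00, 0.06 to 1.95) and Gar1 (1.08, 0.12 to 2.03) had intervals above 0 on few UMIs. The box C/D proteins, at 0.12, and the small subunit factors, at -0.13, had intervals that span 0.

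Inside the cycling class the order was the other way, at 0.592% in 42 upper and 0.728% in 7 lower cells (log2 ratio -0.30, -0.39 to -0.20), but without cell 82, 1 of those 7, it was 0.641% and the ratio -0.11, with an interval that spans 0. The 15 middle cells there had 0.591%. Among the cells with more gene UMIs than the median of their pool, 49 upper and 15 lower cells did not differ beyond counting error (log2 ratio -0.005, -0.08 to 0.07). That value also rests on cell 82: without it the 14 lower cells had 0.534% and the ratio was 0.13 (0.05 to 0.21), and leaving out all 10 cells with erythroid UMIs gave 0.09 (0.01 to 0.17). Among the cells with fewer gene UMIs the ratio was 0.27 (0.16 to 0.37; 15 and 49 cells). Against ERCC spike-in RNA, added in like amount to each well, there were 0.226 member UMIs per spike-in UMI in the upper class and 0.111 in the lower, a log2 ratio of 1.02. The spike-in ratio also holds the larger RNA content of larger cells, and how much of the difference in share goes with cycling or with depth was not tested.

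**Figure D3:**
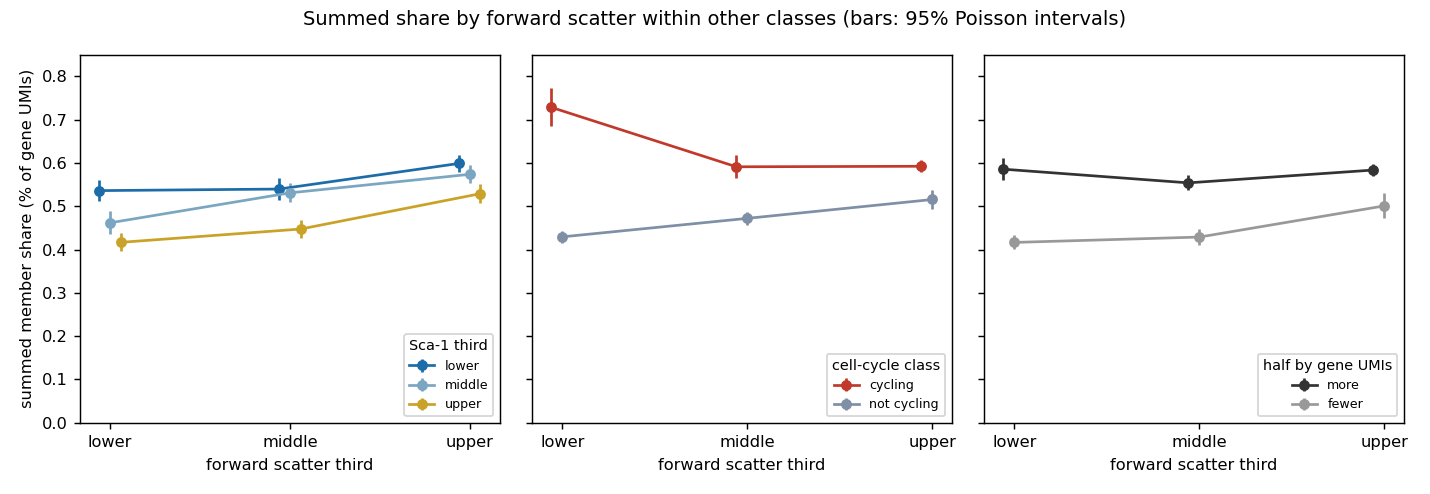
Summed share of the 49 genes (% of gene UMIs, with 95% Poisson intervals) by forward scatter class, split by Sca-1 class, by cycling class and by gene UMIs above or below the median. The cells outside the cycling class climb from 0.429% to 0.515%, whereas the deeper cells start at 0.585% and end at 0.584%, with the lower class at 0.534% if cell 82 is left out.

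**Figure D4:**
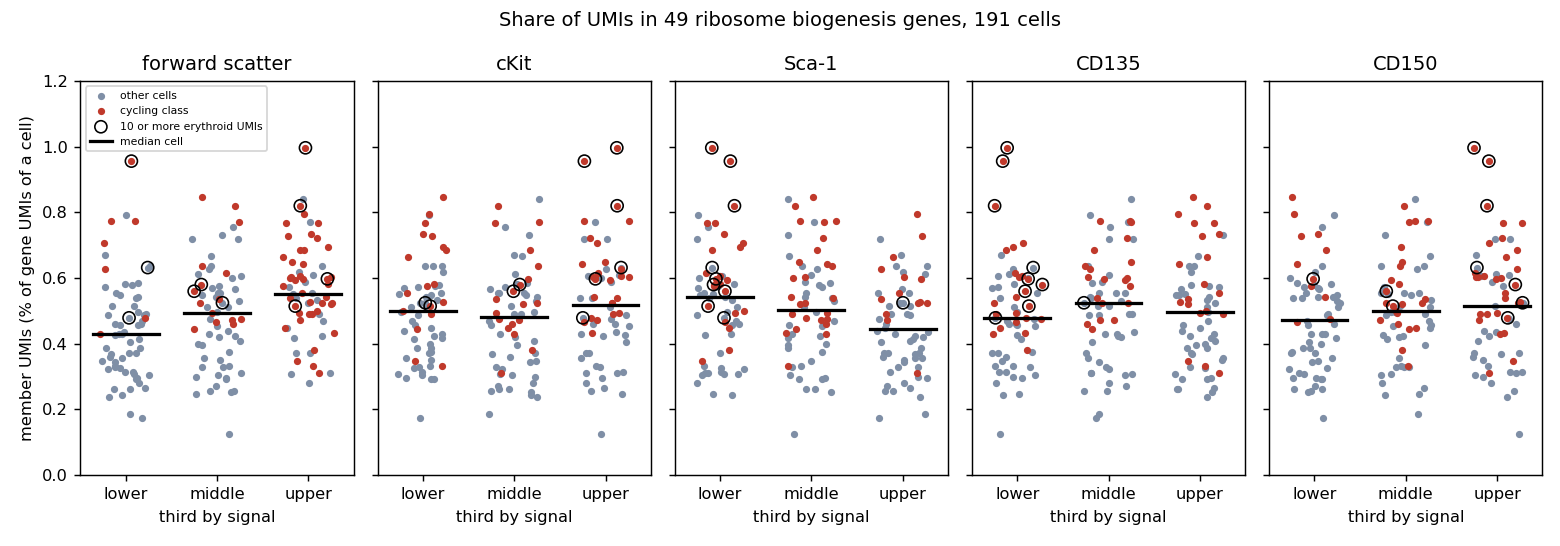
Share of gene UMIs in the 49 genes (%) for each of 191 cells, by lower, middle and upper class of each of the 5 signals; red points are the cycling class, rings the 10 cells with erythroid UMIs, and bars the median cell. For forward scatter the medians run from 0.430% through 0.492% to 0.552%, and in every panel the classes overlap.

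Cells with more Sca-1 on their surface held a smaller share. The summed share was 0.567% in the lower, 0.534% in the middle and 0.467% in the upper class, a log2 ratio of -0.28 (-0.33 to -0.23), with -0.25 in pool 1 and -0.30 in pool 2. The median cells were, in the same order, at 0.541%, 0.503% and 0.443%, and the cells overlapped. Without the 10 cells, 9 of which lay in the lower class, the ratio was -0.16 (-0.22 to -0.11), and it lay between -0.30 and -0.24 when any 1 cell was left out. The cycling class held 24 of the lower and 14 of the upper cells. Inside it the Sca-1 ratio was -0.23 (-0.31 to -0.16), and without the 10 cells -0.08, with an interval that spans 0 (-0.16 to 0.01). Depth moved with Sca-1, at a median of 18959 gene UMIs in the lower and 16697 in the upper class. Among cells with more gene UMIs the ratio was -0.31 (-0.37 to -0.24), and among those with fewer it was -0.11 (-0.20 to -0.01); without the 10 cells these were -0.17 and -0.08, the second with an interval that spans 0. The second also came to -0.06, its interval spanning 0, without cell 32 of pool 1 alone. The parts of cycling and depth in the Sca-1 difference were not tested. Erythroid RNA moved with it as well: the 8 genes held 0.0657% of UMIs in the lower and 0.00842% in the upper class.

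Of the 49 members, 39 were lower in the Sca-1 upper class and 10 higher, where 53.4% of all 11995 genes were higher; by 1.5-fold, 1 was higher (all genes, 17.6%) and 9 were lower (all genes, 11.3%). The median was -0.31 over the members and 0.04 over all genes, and 12 intervals lay below 0 (all genes, 7.83%) and 2 above (all genes, 10.3%). Without the 10 cells, 34 were lower and 15 higher, with 52.9% of all genes higher. Among cells outside the cycling class, 33 of 48 members were lower and 15 higher, with 51.9% of all genes higher; 4 were higher by 1.5-fold (all genes, 17.5%) and 7 lower (all genes, 11.8%). The summed ratio there was -0.18 (-0.25 to -0.11; 50 upper and 39 lower cells), with -0.24 in pool 1 and -0.12 in pool 2. Leaving out the 10 cells gave -0.17 there.

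Ddx10 kept its size in each of these. Its cells ran from 0 through a median of 98.6 to 382 CPM in the lower class and from 0 through 47.4 to 325 CPM in the upper. The sums were 99.5, 95.5 and 58.2 CPM from lower to upper, so it was the upper class that stood apart, with a log2 ratio of -0.77 (-1.22 to -0.34), -0.73 without the 10 cells and -0.66 outside the cycling class. Nop10 ran from 0 through 123 to 531 CPM in the lower and from 0 through 62.01 to 424 CPM in the upper class (log2 ratio -0.61, -0.98 to -0.25), but without the 10 cells it came to -0.30 with an interval that spans 0. Npm1 had median cells of 1244 and 1037 CPM, sums of 1351 and 1080 CPM and a log2 ratio of -0.32 (-0.43 to -0.22), which was -0.19 without the 10 cells. Ncl had sums of 1089 and 901 CPM (-0.27, -0.39 to -0.16). Ftsj3, a methyltransferase of the large subunit path, had 59.7 and 34.7 CPM (-0.78, -1.37 to -0.21), with an interval that spans 0 without the 10 cells.

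Noc3l, a large subunit factor, went the other way, at 22.2 CPM in the lower and 39.1 CPM in the upper class (0.82, 0.11 to 1.54, on 98 UMIs over all cells); without the 10 cells it had 0.73, with an interval that spans 0. Outside the cycling class it was 19.5 and 45.9 CPM (1.24, 0.29 to 2.27). Polr1c had 39.8 and 58.2 CPM (0.55), with an interval that only just clears 0. By role, the nucleolar factors (-0.29), box H/ACA proteins (-0.35), small subunit factors (-0.34) and large subunit factors (-0.27) had intervals below 0, and those of the polymerase I genes (-0.18) and box C/D proteins (-0.16) span 0. Forward scatter and Sca-1 crossed: the 25 cells high in scatter and low in Sca-1 had 0.599% and the 25 low in scatter and high in Sca-1 had 0.417%. Within each Sca-1 class the scatter ratio was 0.16, 0.31 and 0.34 from lower to upper, and within each scatter class the Sca-1 ratio was -0.36, -0.27 and -0.18. The 10 cells bear on this too: without them the Sca-1 ratios were -0.18, -0.27 and -0.04, the last with an interval that spans 0, and the scatter ratio in the lower Sca-1 class was 0.20. Single cells moved these values: without cell 73 the scatter ratio in the lower Sca-1 class was 0.08, with an interval that spans 0, and the Sca-1 ratio in the upper scatter class was -0.09. Without cell 82 the scatter ratio in the lower Sca-1 class was 0.31, and the Sca-1 ratio in the lower scatter class was -0.22. Outside the cycling class this did not hold everywhere: the scatter ratio was -0.05 (-0.19 to 0.09) in the lower Sca-1 class (7 and 19 cells), and the Sca-1 ratio was 0.05 (-0.11 to 0.22) in the upper scatter class (6 and 7 cells).

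For cKit, CD135 and CD150 the differences in the summed share were small, and none kept its size without the 10 cells. Upper against lower class, cKit had 0.557% and 0.513%, a log2 ratio of 0.12 (0.07 to 0.17), which was 0.08 without cell 73 and 0.01 (-0.04 to 0.06) without the 10 cells. CD135 had 0.504% and 0.533%, a ratio of -0.08 (-0.13 to -0.03), which was -0.03 (-0.08 to 0.02) without cell 73 and turned to 0.07 (0.02 to 0.13) without the 10. CD150 had 0.542% and 0.505%, a ratio of 0.10 (0.05 to 0.15), held in pool 2 (0.21) and not in pool 1 (0.002), which was 0.06 without cell 73 and -0.01 (-0.06 to 0.04) without the 10. The erythroid genes moved with each, at 0.0538% and 0.0112% of UMIs for cKit, 0.00383% and 0.0694% for CD135, and 0.0566% and 0.00509% for CD150. Outside the cycling class the ratios were 0.001 (-0.07 to 0.07), 0.02 (-0.06 to 0.09) and -0.01 (-0.09 to 0.06) in turn. No difference between upper and lower class was thus detectable at this depth. The middle class of CD135 stood above both there, at 0.495% (0.479 to 0.511) against 0.444% in the lower and 0.449% in the upper. That order held in each pool, with 0.482% and 0.511% in the middle class of pools 1 and 2. In pool 1 its interval (0.461 to 0.503) overlapped those of the lower and the upper class. Over all cells of pool 1 the lower class of CD135 was the highest, at 0.520% against 0.501% in the middle. Outside the cycling class the middle class of CD150, at 0.483%, stood above the lower and upper class in pool 1 but not in pool 2.

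**Figure D5:**
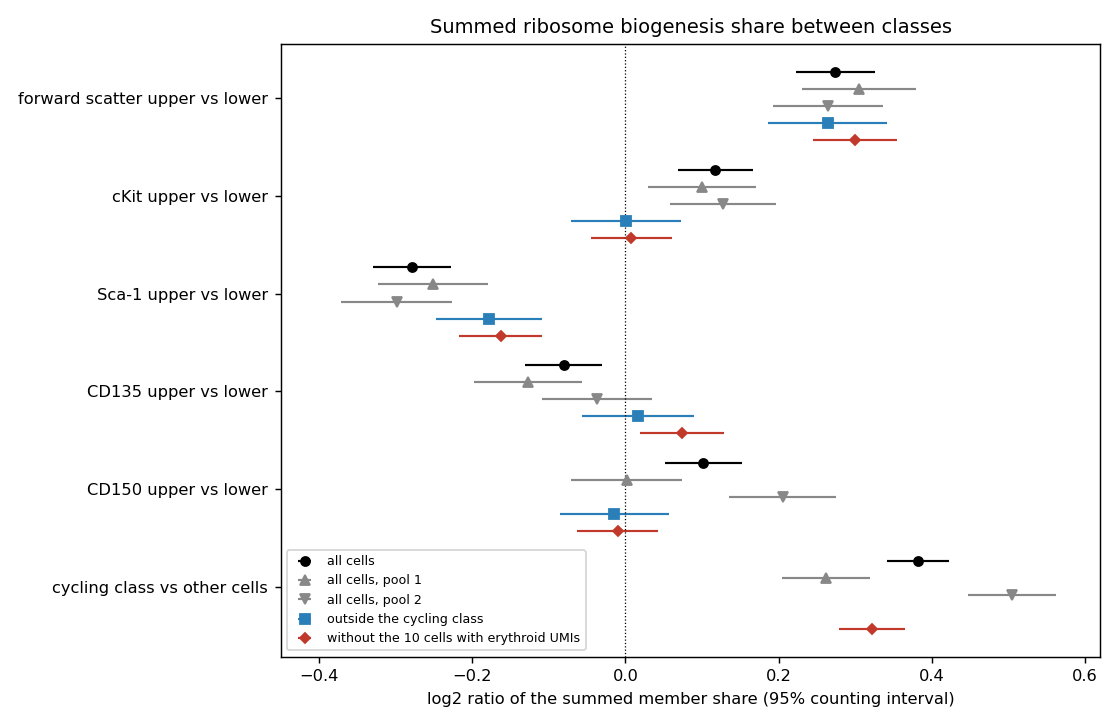
Log2 ratio of the summed share of the 49 genes between classes, with 95% counting intervals, in all cells, in each pool, outside the cycling class and without the 10 cells with erythroid UMIs. Forward scatter and cycling stay at 0.30 and 0.32 without the 10 cells, Sca-1 goes from -0.28 to -0.16, and cKit, CD135 and CD150 go to 0.01, 0.07 and -0.01.

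By member, 36 were higher and 13 lower with cKit, where 54.7% of all genes were higher; 3 were higher by 1.5-fold (all genes, 16%) and 1 lower (all genes, 11.6%). Leaving out the 10 cells gave 29 and 20 (55.7% of all genes higher), and outside the cycling class 26 and 23 (54.3%). With CD135, 18 were higher and 31 lower (44.7% of all genes higher), and by 1.5-fold 2 were higher (12.9%) and 5 lower (17.3%). Leaving them out gave 28 and 21 (43.9%), and outside the cycling class 29 and 20 (45.8%). With CD150, 31 were higher and 18 lower (50.7%), with 2 higher by 1.5-fold (14.8%) and 0 lower (11.8%). With the 10 left out 23 were higher and 26 lower (51.5%), and outside the cycling class the count was the same 23 and 26 (49%). These counts without the 10 cells lie near those of all genes for cKit and CD150 and somewhat above them for CD135.

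Wdr12, which with Bop1 and Pes1 forms the PeBoW complex of large subunit assembly, differed along all 3 proteins. In CD135 its cells ran from 0 through a median of 111 to 425 CPM in the lower and from 0 through 68.2 to 402.5 CPM in the upper class. Summed, it stood at 147, 95.4 and 83.3 CPM from lower to upper, a log2 ratio of -0.82 (-1.19 to -0.46), -0.77 without the 10 cells and -0.84 outside the cycling class. In cKit it had 89.1 and 130 CPM (0.54, 0.18 to 0.91; 0.41 without the 10 cells), and in CD150 90.97 and 130 CPM (0.51, 0.15 to 0.88; 0.41 without them). Of its partners, Bop1 had -0.91 in CD135 (-1.67 to -0.19; the interval spans 0 without the 10 cells) and Pes1 -0.17 (-0.75 to 0.39). With forward scatter Wdr12 had -0.10, and outside the cycling class its CD150 ratio was 0.36; both intervals span 0. An exon of Wdr12 overlaps Carf (69 UMIs, opposite strand) and one of Bop1 overlaps Mroh1 (18 UMIs).

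Gnl3, which cycles between nucleolus and nucleoplasm, was higher with cKit, at 111 and 156 CPM (0.49, 0.16 to 0.81; 0.43 without the 10 cells, 0.69 outside the cycling class), under the reserve of its overlap with Pbrm1. Its median cells were at 74.9, 124 and 99.5 CPM from lower to upper, and the classes overlapped from 0 to over 440 CPM. In CD150, Nop56 had 152 and 209 CPM (0.46, 0.18 to 0.75) and Gar1 30.9 and 53.03 CPM (0.78, 0.17 to 1.41). Outside the cycling class, which held 30 of the upper and 11 of the lower CD150 cells, both intervals span 0. Without the 10 cells the summed CD150 ratios of the box C/D and box H/ACA proteins were 0.16 and 0.12, with intervals that span 0. Brix1 had -0.68 in CD135 (-1.25 to -0.12), which without the 10 cells was 0.14 with an interval that spans 0.

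The wider pathway differed less. A further list of 91 biogenesis genes, 16274 UMIs in all and drawn up with results of these data known, had 56 of 90 higher with forward scatter (median log2 ratio 0.10), 59 of 91 lower with Sca-1 (-0.12) and 60 of 91 higher in the cycling class (0.15), beside the shares of all genes given above. Its summed ratios were 0.08, -0.10 and 0.15, each smaller than that of the 49. Its largest genes were unlike: Snu13, a box C/D protein, stood at 200 against 102 CPM with forward scatter (0.96, 0.64 to 1.30), and Nsa2, of the large subunit path, at 305.5 against 379.5 CPM (-0.31, -0.51 to -0.11). The 82 ribosomal protein genes held 9.94% and 9.76% of UMIs in the upper and lower class of forward scatter and 9.83% and 9.77% inside and outside the cycling class. Over cells, the ribosomal protein share and the share of the 49 genes had a Spearman correlation of 0.15, as a description of 191 cells of 1 sample.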

How the data were processed

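The authors deposited whole-number UMI counts that had not been normalized, from an adapted CEL-seq2 protocol with a UMI of 6 bases and a cell index of 8 bases, per the labels' protocols. The build GRCh38, a human one, comes from the submitters' processing notes, although every gene carries a mouse identifier. Which aligner and counter were used, and how UMIs were merged, is not given in the sources used here. Symbols and coordinates came from GENCODE M21 on GRCm38 (20530 of 20764 genes had a symbol), and 71 spike-ins were left out of all totals. A cell was left out if its gene UMIs came to less than 20% of the median in its pool, and doublets were not called, since cells were sorted singly. Equal forward scatter values at a class border (up to 5 cells) were split by the order of the labels. Sums of UMIs were taken class by class; these have exact Poisson and ratios exact conditional binomial 95% intervals, which cover counting error only, and no p-value was computed. The ratios and their intervals were tested on simulated counts that hold counting error alone. Those counts have no spread between cells, so the simulation does not show how the intervals behave under such spread. Python 3.11.15, numpy 2.4.6, pandas 2.3.3 and scipy 1.17.1 were used.

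The members, lists and classes were chosen with earlier results of these data known. Any member could be named. Values could be given for up to 4 members a direction whose intervals lay farthest from 0 with the same sign in both pools. The same held for the 8 with most UMIs, the leading 2 of each role, the 4 other biogenesis genes with most UMIs, Myc, Mycn and Max. Not all of these are shown: Tcof1, Rsl1d1, Mrto4 with cKit and Pno1 with Sca-1 are among those left out. Others were named after their values were seen, and so were the 10 cells with erythroid UMIs. Alternatives covered the pools, other class sizes, depth, denominators, filters, cycling classes and single cells.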

Additional observations from a re-analysis of the deposited data

How the results depend on the processing

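Of 200 alternative values of the comparisons over all cells and outside the cycling class, 162 stayed within the counting interval of the reported value (counts of members, within 1.5 times), 35 moved further, and 3 turned the sign of a ratio whose interval was clear of 0. Of the 162 and 35, 18 had the other sign from a reported ratio whose interval spans 0, all of them for cKit (7), CD135 (5) and CD150 (6) outside the cycling class. The split by gene UMIs, the removal of cells by CD127 or erythroid UMIs and the leaving out of single cells, within splits too, were chosen after seeing the data. The 3 were the log2 ratio of forward scatter among cells with more gene UMIs (-0.005), and those of CD135 (0.074) and CD150 (-0.010) without the 10 cells with erythroid UMIs. Without those cells, cKit moved to 0.008, Sca-1 to -0.163 and cycling to 0.322. Per spike-in UMI, the ratios were 1.022 for forward scatter, 0.393 for cKit, -0.565 for Sca-1, -0.155 for CD135, 0.400 for CD150 and 0.983 for cycling; outside the cycling class they were 0.852, 0.208 and -0.318 for the first 3 and 0.134 for CD150, and 2 and 11 members were then higher with Sca-1 and CD135. By construction this denominator also holds the RNA content of the cells. In pools 1 and 2 the ratios were 0.002 and 0.205 for CD150, 0.366 and 0.122 for forward scatter and -0.107 and 0.075 for CD150 outside the cycling class, and 0.262 and 0.505 for cycling. Without cells of CD127 signal above 2000, cKit came to 0.175 and CD150 to 0.155. In cells with fewer gene UMIs Sca-1 came to -0.106, and outside the cycling class forward scatter came to 0.102 in cells with more gene UMIs and to 0.158 without Npm1 and Ncl. CD135 was -0.003 as a mean of cells and -0.136 without Npm1 and Ncl; CD150 outside the cycling class was 0.060 with classes of 48 cells per pool. Cycling classes of 16 and 48 cells per pool gave 0.297 and 0.434. The cause of these moves was not tested.

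Leaving out single cells gave 0.239 to 0.338 for forward scatter, 0.075 to 0.137 for cKit, -0.303 to -0.235 for Sca-1, -0.100 to -0.029 for CD135, 0.057 to 0.123 for CD150 and 0.352 to 0.394 for cycling. Outside the cycling class it gave 0.213 to 0.300, -0.037 to 0.035, -0.215 to -0.145, -0.018 to 0.040 and -0.058 to 0.022 in the same order of signals.

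No paired analysis was possible because all cells are 1 biological sample and no test across samples was made. A median member had 170 UMIs over all cells, so most single members could not show differences under 1.5-fold, and no result says how animals vary.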

Other observations

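The Myc family, whose proteins are known to drive ribosome biogenesis genes, did not vary as one. Myc (861 UMIs) stood at 260 CPM in the upper and 190.3 CPM in the lower class of forward scatter, a log2 ratio of 0.45 (0.19 to 0.71). Outside the cycling class it stood at 365 and 178.4 CPM (1.03, 0.70 to 1.37), a wider ratio than that of the 49 biogenesis genes in the same cells, 0.26 (0.19 to 0.34). Between the cycling class and other cells, where the biogenesis genes were at 0.38, Myc had -0.10 with an interval that spans 0 (-0.30 to 0.10). Mycn (192 UMIs) went against Myc with forward scatter, at 39.5 and 70.6 CPM (-0.84, -1.36 to -0.32). It was higher with Sca-1, at 87.7 CPM in the upper and 35.96 CPM in the lower class (1.28, 0.77 to 1.82), along which the biogenesis genes were lower. Myc was lower along Sca-1 too, at 196 CPM in the upper and 236 CPM in the lower class (-0.26, -0.52 to -0.01). Outside the cycling class its Sca-1 ratio was -0.56 (-0.88 to -0.24). Max (343 UMIs), the partner of both, had intervals that span 0 with forward scatter and Sca-1 over all cells. It was lower in the cycling class (-0.46, -0.79 to -0.13), and outside that class it was lower with Sca-1 (-0.66, -1.15 to -0.18). These are RNA levels in cells of 1 sample, and no link to the biogenesis genes was tested.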
